A study of Drosophila melanogaster with 29 samples.

Results

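Basement membrane and haemocyte genes were followed through males and females of 5 laboratory strains of Drosophila melanogaster. The 8 genes were taken by symbol: vkg, Col4a1 (also written Cg25C), LanA, LanB1, LanB2, Pxn, Hml and srp. Each is measured by 1 probe set, so that 8 of 10844 genes measured under a single symbol, or 8 of the 13966 probe sets tested, are described. RNA of whole flies kept at 25°C was hybridised to 29 Affymetrix Drosophila Genome 1 arrays, 15 of males and 14 of virgin females. Hikone females had 2 replicates and the other 9 groups had 3 each. The strains, which carried no transgene and received no treatment, were France (collected at Kerbiniou), Antigua, the Glasgow Oregon R and Cambridge Oregon R stocks, and Hikone from Japan, which the labels also call Oregon R. By their labels flies were 0 to 6 hours past eclosion, except that the label of France female replicate 3 gives 3 to 5 days. Each strain is a single stock, so a difference between strains is one between stocks. Replicates were separate groups of flies with separate RNA extractions, and nothing says whether they were reared apart, so that p-values measure the spread among these samples.

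The basement membrane is a sheet of extracellular matrix that underlies epithelia and wraps muscles, fat body and gonads. Its network in flies is built from collagen IV, whose chains are encoded by vkg and Col4a1, and from laminin, a trimer with an alpha chain (LanA), a beta chain (LanB1) and a gamma chain (LanB2). Pxn encodes peroxidasin, a secreted peroxidase that crosslinks collagen IV. Haemocytes, the blood cells of the fly, secrete much of this matrix in the embryo, whereas the larval fat body is a main source of collagen IV. Hml encodes hemolectin, a clotting protein made by haemocytes, and srp encodes a GATA transcription factor needed to form haemocytes and fat body.

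Values are log2 expression after GCRMA, the authors' summary of the probes of a probe set, so that a difference of 1 is 2-fold. All 8 genes had a group mean of at least 5, as did 58% of all probe sets. Probes differ in brightness, so each gene was compared with itself across groups and not with the level of another. The median of an array ranged from 4.30 to 4.61, and the lowest correlation between replicates was 0.962. SP, a male accessory gland peptide, read 1.07 to 1.26 in females and 10.64 to 11.91 in males, whereas the yolk protein gene Yp1 read 12.71 to 13.9 in females and 2.06 to 10.85 in males, the highest of these in Cambridge male replicate 1. That array also read 7.56 for the mean of 12 follicle cell, eggshell and yolk markers, against 3.09 to 3.92 on the other male arrays. Whether it holds RNA of females was not tested. It was kept, and fits without it are given below. The mean of these markers was 11.87 on France female replicate 3 and 12.03 and 11.92 on the other France females, so that these markers did not set it apart. In whole flies, fewer cells of a type and less RNA per cell cannot be told apart, and the number of arrays limits the precision.

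Of the collagen and laminin genes, the collagen IV chains varied most among the strains in males. France flies of both sexes held the most vkg transcript: the arrays read 9.99, 9.17 and 9.28 in males and 9.62, 9.28 and 9.08 in females. Antigua read 7.20, 7.27 and 7.16 in males and 8.84, 8.96 and 8.62 in females, and Hikone 8.15, 8.34 and 7.73 in males and 8.79 and 8.62 in females. All Antigua and Hikone females thus lay above the males of their own strain, which was not so in France. Cambridge read 6.72, 6.97 and 7.07 in males and 8.07, 8.67 and 8.29 in females. Glasgow read 7.24, 6.41 and 7.02 in males and 7.29, 7.23 and 7.35 in females. The Glasgow females thus overlapped the males of Glasgow and Antigua and lay below every other female. The 6 France arrays lay above all others, and the ranges of France males and France females overlapped.

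Col4a1 followed the same order at the upper end. Its arrays read 9.10, 8.88 and 8.73 in France males and 8.98, 8.84 and 8.48 in France females. In Antigua they read 7.02, 7.17 and 6.75 in males and 8.44, 8.57 and 8.30 in females, and in Hikone 7.69, 7.92 and 7.50 in males and 8.38 and 8.20 in females. The sexes were again apart in Antigua and Hikone and overlapped in France. Cambridge males read 6.68, 6.91 and 6.94 and Cambridge females 7.76, 8.02 and 8.32. Glasgow males read 7.25, 6.80 and 7.11 and Glasgow females 7.17, 7.18 and 7.17, within the range of their males. In females the group means of Col4a1 spanned 1.59 (3.02-fold) and those of vkg 2.04 (4.1-fold), and in males they spanned 2.06 (4.17-fold) and 2.59 (6.02-fold).

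**Figure D1:**
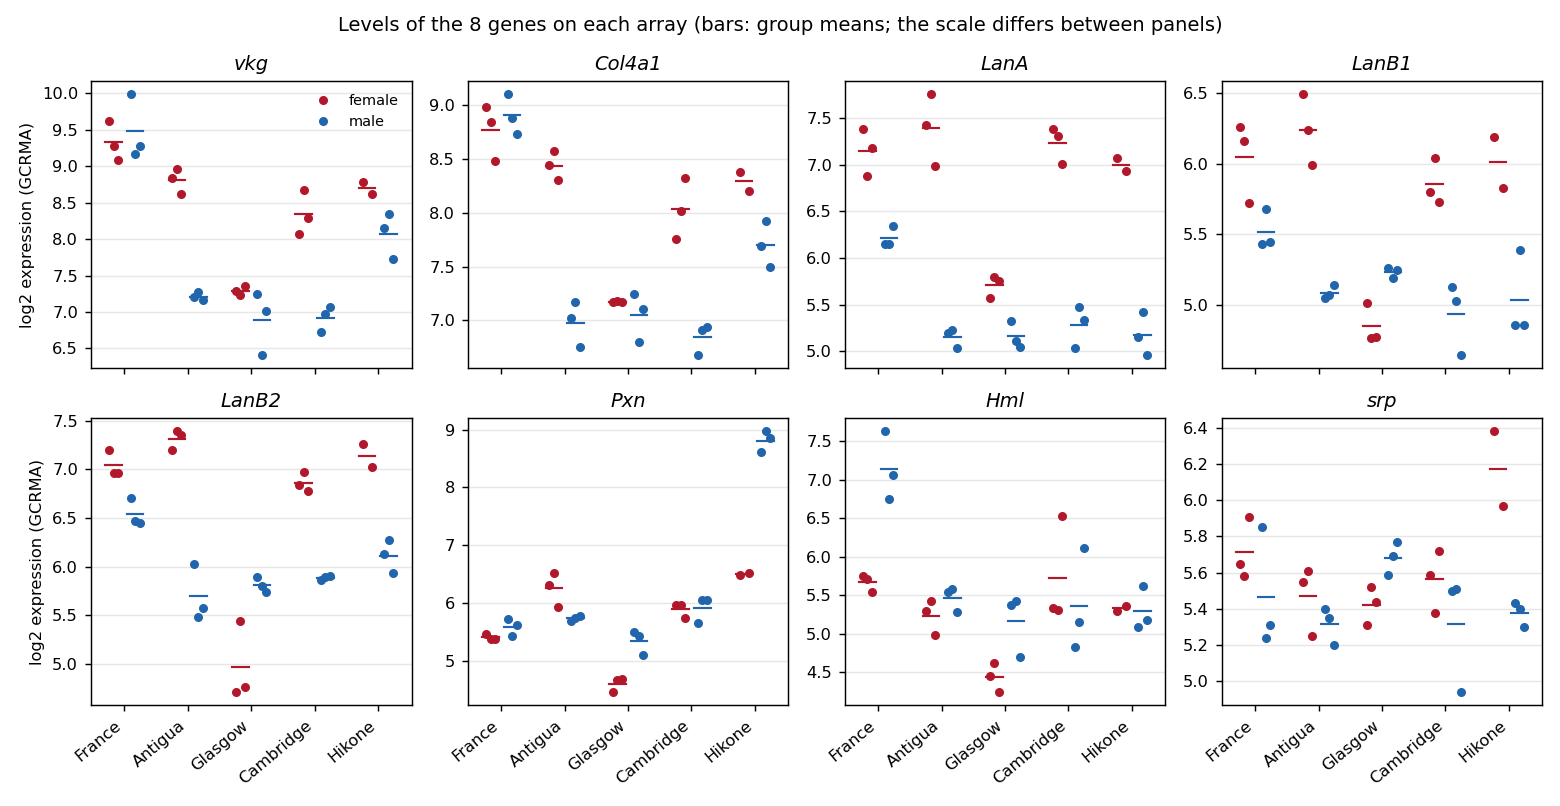
Log2 expression (GCRMA) of the 8 genes by strain, with 1 point per array, red for females and blue for males, and a bar at each group mean; the vertical scale differs between genes. France arrays are highest for vkg, the France groups have the highest means of Col4a1, Glasgow females are lowest among females for LanA, LanB1, LanB2, Pxn and Hml as well as for the collagen chains, and the Hikone males stand apart for Pxn between 8.61 and 8.97.

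The group means of the laminin chains were higher in females than in males of France, Antigua, Cambridge and Hikone, whereas in Glasgow this held for LanA and not for LanB1 or LanB2. LanA, the alpha chain, read 7.38, 6.88 and 7.18 in France females, 7.43, 7.76 and 6.99 in Antigua females, 7.38, 7.31 and 7.01 in Cambridge females and 7.07 and 6.93 in Hikone females, but 5.57, 5.80 and 5.75 in Glasgow females. In males it read 6.15, 6.15 and 6.34 in France, 5.20, 5.23 and 5.03 in Antigua, 5.32, 5.11 and 5.05 in Glasgow, 5.04, 5.48 and 5.34 in Cambridge and 5.15, 5.42 and 4.96 in Hikone. Within every strain all females lay above all males, and the Glasgow females lay below the France males.

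LanB2, the gamma chain, was the laminin gene with the widest spread among females. It read 7.20, 6.96 and 6.96 in France females, 7.20, 7.39 and 7.35 in Antigua females, 6.84, 6.97 and 6.78 in Cambridge females, 7.26 and 7.02 in Hikone females, and 4.71, 5.44 and 4.76 in Glasgow females. Males read 6.71, 6.47 and 6.45 in France, 6.03, 5.48 and 5.58 in Antigua, 5.89, 5.80 and 5.74 in Glasgow, 5.86, 5.89 and 5.90 in Cambridge and 6.13, 6.27 and 5.93 in Hikone. In Glasgow the order of the sexes was turned: its females were below its males and below every other array, with a mean of 4.97 ± 0.41 (SD, n = 3) against 5.81 ± 0.08 (SD, n = 3).

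LanB1, the beta chain, varied less among males. Its group means ranged from 5.86 to 6.24 in the females of France, Antigua, Cambridge and Hikone and from 4.94 to 5.52 in males. Glasgow females had the lowest mean of the 10 groups, at 4.86 ± 0.14 (SD, n = 3), with arrays at 5.02, 4.77 and 4.78. The Glasgow males, at 5.26, 5.19 and 5.25, all lay above them, so that LanB1 shared the turned order of LanB2.

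Pxn, the collagen crosslinking enzyme, followed neither collagen nor laminin in males. The Hikone males read 8.61, 8.97 and 8.85, and the highest of the other 12 male arrays read 6.06. The Hikone females, at 6.49 and 6.53, had the highest mean of the females but overlapped the Antigua females, which read 6.32, 6.53 and 5.93. France females read 5.47, 5.38 and 5.38, Cambridge females 5.96, 5.97 and 5.75, and Glasgow females 4.46, 4.67 and 4.69. Glasgow females were thus again below all other arrays. Males outside Hikone read 5.73, 5.43 and 5.63 in France, 5.70, 5.74 and 5.77 in Antigua, 5.51, 5.43 and 5.10 in Glasgow and 5.66, 6.05 and 6.06 in Cambridge. The group means spanned 3.46 (11-fold) in males and 1.90 (3.74-fold) in females.

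Hml, the haemocyte clotting gene, was high in France males, at 7.63, 6.75 and 7.06. Among the other males it read 5.54, 5.58 and 5.28 in Antigua, 5.38, 5.43 and 4.70 in Glasgow, 4.83, 5.15 and 6.11 in Cambridge and 5.09, 5.62 and 5.18 in Hikone. All 3 France males lay above all other arrays of the gene, although Cambridge female replicate 3 came close to the lowest of them. Females read 5.75, 5.71 and 5.54 in France, 5.30, 5.42 and 4.98 in Antigua, 4.45, 4.62 and 4.24 in Glasgow, 5.33, 5.31 and 6.53 in Cambridge and 5.30 and 5.36 in Hikone. Replicate 3 was the highest in both sexes of Cambridge, and the mean SD within groups of Hml, 0.32, was the largest of the 8 genes. The Glasgow females did not overlap any group, and the neighbours in the order between France males and Glasgow females overlapped.

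The factor srp varied least, with group means that spanned 0.75 in females and 0.37 in males. It ranged from 5.25 to 6.38 over the 14 female arrays (median 5.58) and from 4.94 to 5.85 over the 15 male arrays (median 5.40). The Hikone females, at 6.38 and 5.97, lay above all other groups, and the ranges of all other neighbouring groups in the order overlapped.

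Males and females were compared first, each strain weighted equally, with moderated statistics of limma and Bonferroni adjustment over all 13966 probe sets, a gene being called at an adjusted p below 0.01. Collagen IV and laminin transcripts were lower in males. LanA differed most: it was 2.82-fold lower in males (log2 difference -1.50, SE 0.08, adjusted p = 1.12e-10). The collagen chains vkg (-0.78, SE 0.10, adjusted p = 0.0019) and Col4a1 (-0.64, SE 0.07, adjusted p = 0.000201) and the laminin chains LanB1 (-0.64, SE 0.07, adjusted p = 0.000469) and LanB2 (-0.66, SE 0.07, adjusted p = 0.000121) were also lower. Pxn was higher in males (0.55, SE 0.06, adjusted p = 0.000368). With each array centred on its median, every difference moved by -0.12 and none changed direction. Hml (0.41, SE 0.14) and srp (-0.24, SE 0.07) were not called, each with an adjusted p of 1. Thus 5 of the 8 genes were called lower in males, against 28.8% of all probe sets, and 1 was called higher, against 18.1%. The median difference was -0.64 over the 8 genes and -0.08 over all probe sets. The male difference of Pxn rested on Hikone: without the Hikone arrays it was 0.11 (adjusted p = 1), and after median centring it was 0.42 (adjusted p = 0.0474), so that 5 genes were then called lower and 0 higher in males. In the fit without Hikone, which has fewer arrays, vkg was -0.82 (adjusted p = 0.0103) and LanB2 -0.56 (adjusted p = 0.0186). These differences stayed, unlike that of Pxn, but were no longer called, which left 3 of the 8 genes. The call of vkg was lost without Hikone female replicate 1 (adjusted p = 0.0131).

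The sexes were also compared within each strain. In Antigua 5 genes were called lower in males, against 13.0% of probe sets: LanA (4.72-fold, adjusted p = 1.55e-07), LanB2 (3.07-fold, adjusted p = 1.53e-05), vkg (3.02-fold, adjusted p = 0.00504), Col4a1 (2.74-fold, adjusted p = 0.000108) and LanB1 (2.22-fold, adjusted p = 0.00906). In Cambridge LanA (3.85-fold, adjusted p = 2.02e-06) and Col4a1 (2.28-fold, adjusted p = 0.00284) were called lower, against 15.7%. In Hikone LanA was called lower in males (3.54-fold, adjusted p = 4.56e-05), against 13.6%, and Pxn was called higher (4.92-fold, adjusted p = 2.25e-08), against 8.94%. No gene was called in France or in Glasgow, where 13.3% and 20.5% of probe sets were called lower in males; at an unadjusted p below 0.05, 4 of the 8 genes differed in France and 5 in Glasgow, against 69.3% and 59.5% of all probe sets. In France the collagen chains differed by 0.15 (vkg, SE 0.22) and 0.14 (Col4a1, SE 0.16), and in Glasgow LanB2 was 0.84 (SE 0.15, adjusted p = 0.325) and Pxn 0.74 (SE 0.14, adjusted p = 0.371) above the females. Calls in Antigua and Cambridge near the threshold depended on single arrays: that of vkg in Antigua was lost without any of the 6 Antigua arrays (adjusted p up to 0.0764), that of LanB1 was lost in 21 of 29 such fits (up to 0.16), and that of Col4a1 in Cambridge was lost without male replicate 1, 2 or 3 or female replicate 2 or 3 (up to 0.0488).

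**Figure D2:**
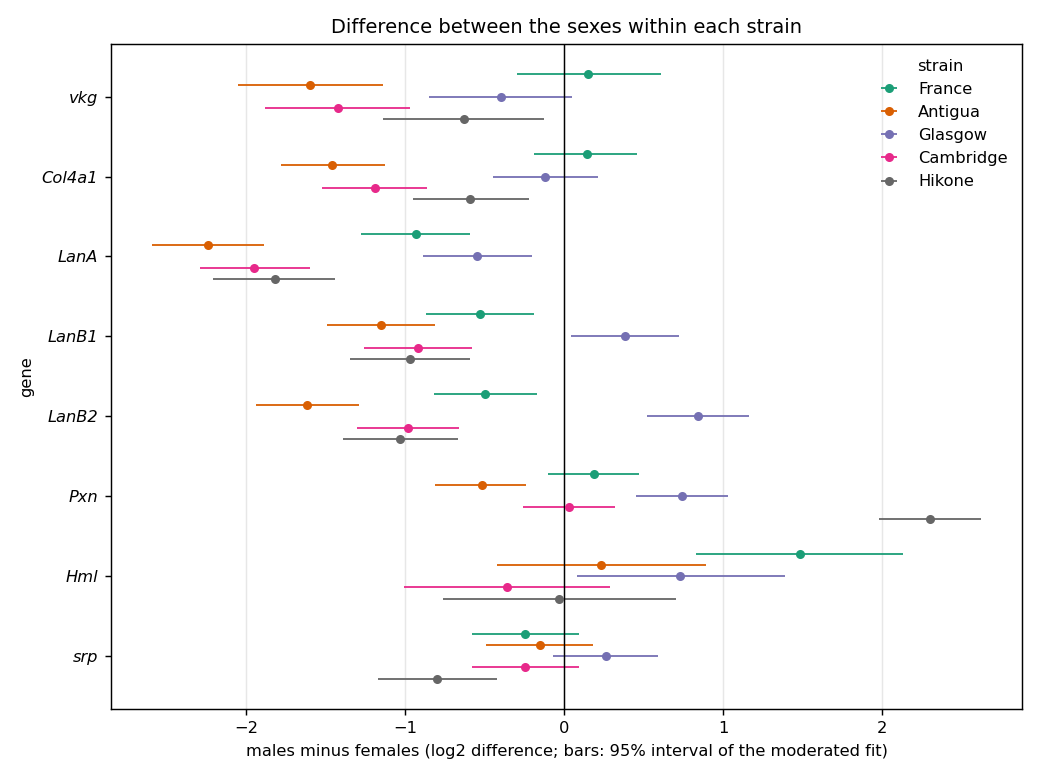
Difference between males and females (log2, males minus females) of each gene in each of the 5 strains, with points for the estimates and bars for their 95% intervals in the moderated fit. LanA lies below 0 in all 5 strains, LanB1 and LanB2 lie above 0 in Glasgow alone, and Pxn reaches 2.30 in Hikone.

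Whether the strain differences themselves differed between the sexes was asked with the sex by strain interaction. It was called for LanB2 (F = 35.6, adjusted p = 7.94e-05) and Pxn (F = 52.9, adjusted p = 2.13e-06), which is 2 of the 8 genes against 2.56% of all probe sets. For Pxn the fit turned on the Hikone males, and without Hikone the interaction was not called (F = 13.8, adjusted p = 1). Col4a1 (adjusted p = 0.0162) and LanA (0.0181) missed the threshold, and LanB1 (0.176), vkg (0.785), Hml and srp (both 1) were further from it. Col4a1 passed without Glasgow male replicate 2 (0.00909) or Cambridge female replicate 1 (0.00689), and LanA without Antigua female replicate 3 (0.00144).

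Among strains averaged over sex, Pxn had the highest moderated F (184, adjusted p = 1.18e-11), followed by Col4a1 (70.2, adjusted p = 1.49e-07), vkg (63.6, adjusted p = 3.78e-07), LanB2 (50.1, adjusted p = 3.53e-06) and LanA (29.9, adjusted p = 0.000365). These 5 of the 8 genes compare with 15.8% of all probe sets, and LanB1 (adjusted p = 0.45), Hml (0.171) and srp (1) were not called. Among females 6 genes were called, against 6.53% of probe sets. These were LanB2 (F = 75.6, adjusted p = 7.29e-08), Pxn (54.5, adjusted p = 1.62e-06), LanA (33.4, adjusted p = 0.000137), Col4a1 (29.5, adjusted p = 0.000404), vkg (24.2, adjusted p = 0.00218) and LanB1 (22.0, adjusted p = 0.00478). Among males 3 were called, against 9.67%: Pxn (F = 215, adjusted p = 2.47e-12), Col4a1 (59.7, adjusted p = 6.92e-07) and vkg (50.8, adjusted p = 3.11e-06). The call of Pxn among males was lost without Hikone (F = 6.01, adjusted p = 1). Among females the call of vkg was lost without any Glasgow female or without France female replicate 1 or 2 (adjusted p up to 0.0416), and that of LanB1 in 12 of the 29 fits that each left out an array (up to 0.155). When females were fitted without the males, LanB2 and Pxn were called and vkg (adjusted p = 0.0322), Col4a1 (0.122), LanA (0.312) and LanB1 (1) were not.

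Each strain was then set against the mean of the other 4 within its sex, in 10 comparisons that share their arrays. Glasgow females held less of 6 of the 8 transcripts, against 2.96% of probe sets called lower there. LanB2 was 4.34-fold lower (log2 difference -2.12, SE 0.12, adjusted p = 1.67e-09), vkg 2.84-fold (adjusted p = 0.000382), LanA 2.8-fold (adjusted p = 4.69e-06), Pxn 2.66-fold (adjusted p = 3.99e-07), Col4a1 2.31-fold (adjusted p = 5.92e-05) and LanB1 2.27-fold (adjusted p = 0.000185). Hml differed by -1.05 (SE 0.25, adjusted p = 1) and srp by -0.31 (adjusted p = 1), and the median of the 8 genes was -1.31, against 0.02 over all probe sets. In the Glasgow females the mean log2 value of 15 other haemocyte markers was 4.18 to 4.19, against 4.20 to 4.45 in all 11 other females, so that the ranges almost met. Only 4 of these markers had a group mean of at least 5, so that this mean rests largely on dim probe sets. The largest of these markers' differences was that of Pvr (-0.84, SE 0.12, adjusted p = 0.0136). The mean of 4 fat body markers was 6.93, 5.49 and 5.50 on the Glasgow female arrays, against 5.34 to 6.53 in the other females. These markers went both ways without a call. The log2 differences were 1.03 (SE 0.80) for Fbp2, 0.54 (SE 0.67) for Fbp1 and -0.48 (SE 0.62) for Lsp2. For apolpp, the brightest, it was -0.72 (SE 0.17), and -1.06 (SE 0.22) by its second probe set. The mean of 12 follicle cell, eggshell and yolk markers was 10.19 to 10.93, against 9.46 to 12.06 in the other females, with Antigua females at 9.46 to 10.93. The part of these tissues in the result was not tested. The call of vkg was lost without Glasgow female replicate 1 (adjusted p = 0.0101) or 2 (0.0129), and with females fitted on their own those of Col4a1 (0.0162), LanA (0.019) and LanB1 (0.0676) were lost, which left 3 of the 6.

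In France females vkg was 1.04 (SE 0.17, adjusted p = 0.0951) and Col4a1 0.78 (SE 0.13, adjusted p = 0.0497) above the other females, without a call. The high collagen was thus not confined to France males. France males were the other group with several calls, through collagen and Hml. Against the males of the other 4 strains, vkg was 4.62-fold higher (log2 difference 2.21, SE 0.17, adjusted p = 3.88e-07), Col4a1 3.38-fold (adjusted p = 5.57e-08), Hml 3.54-fold (adjusted p = 0.00479) and LanA 2.03-fold (adjusted p = 0.00214). These 4 genes compare with 2.97% of probe sets called higher there. Pxn was 1.81-fold lower (adjusted p = 0.00169), where 2.18% of probe sets were called lower. The mean of the other 4 strains includes the Hikone males, at 8.81. Pxn averaged 5.60 in France males, between Glasgow (5.35) and Antigua males (5.74), and 5.92 in Cambridge males. The median of the 8 genes was 0.84, against -0.13 over all probe sets. The means of the 15 other haemocyte markers, most of them dim, were 4.51, 4.22 and 4.16 on the France male arrays. The first of these is the highest of all 29 arrays, and that array is also the highest of vkg, Col4a1 and Hml. The mean of the 4 fat body markers was 5.93 to 6.92 in France males and 5.42 to 7.80 in the males of Antigua, Cambridge and Hikone, with a mean of 8.73 over the Glasgow males, and the part of these cells in the result was not tested. Without France male replicate 1 the difference of Hml was 1.58 (adjusted p = 0.268). The call of LanA was lost without any of the 3 France males (adjusted p up to 0.0931), that of Hml also without either of the other two, Antigua male replicate 1 or 3, Cambridge male replicate 2 or Hikone male replicate 1 or 3 (0.0103 to 0.0691), and that of Pxn without France male replicate 2 (0.0924) or 3 (0.0293). With quantile normalization repeated, LanA (0.013), Hml (0.0203) and Pxn (0.0106) lost their calls as well.

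Pxn carried the other calls. It was 8.93-fold higher in Hikone males (log2 difference 3.16, SE 0.11, adjusted p = 4.9e-14), where 1.30% of probe sets were called higher. In Glasgow males it was 2.25-fold lower (adjusted p = 9.4e-06), where 1.41% were called lower. The mean of the other 4 strains there includes the Hikone males, at 8.81. Pxn averaged 5.35 in Glasgow males, against 5.60, 5.74 and 5.92 in France, Antigua and Cambridge males. In Hikone females it was 1.96-fold higher (adjusted p = 0.00353), against 0.516%, a call that was lost without either Hikone female (adjusted p = 0.337 and 0.554) or with quantile normalization repeated (0.155). The means of the 15 other haemocyte markers, most of them dim, were 4.07 to 4.13 in Hikone males, at the lower end of all arrays. In the females of France, Antigua and Cambridge and in the males of Antigua and Cambridge no gene of the 8 was called; at an unadjusted p below 0.05, 6, 6, 2, 5 and 4 of them differed in these groups in turn, against 57.8%, 27.6%, 38.1%, 24.0% and 57.3% of all probe sets. The array numbers in the labels run on within each strain, so that their order and the strain cannot be told apart.

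**Figure D3:**
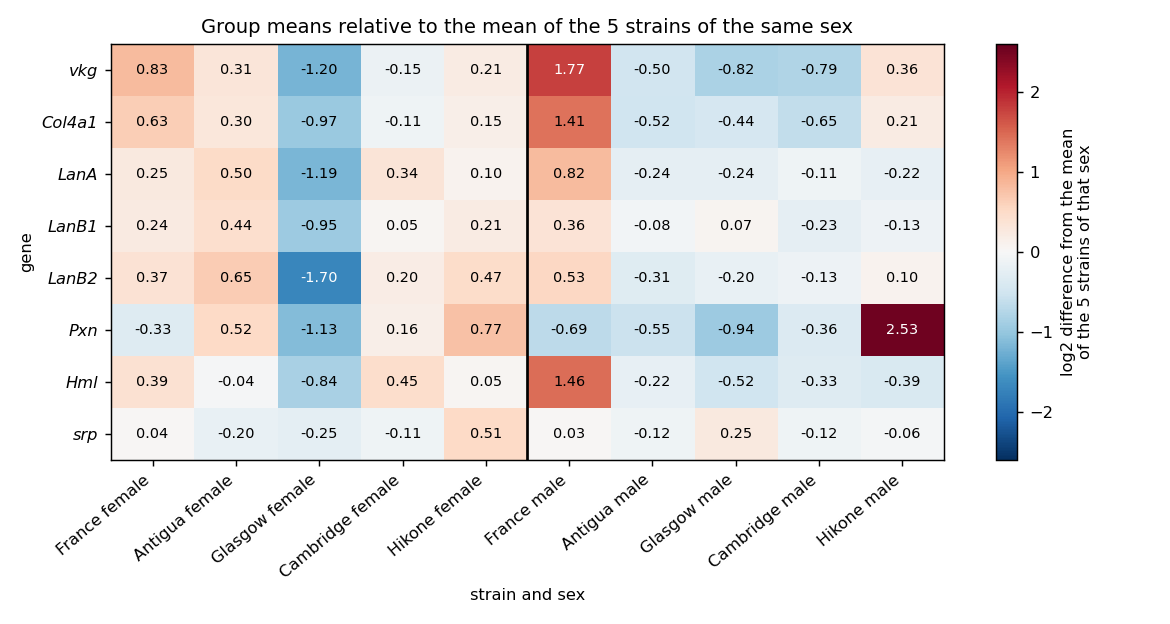
Group mean of each gene minus the mean of the 5 strains of the same sex (log2), with rows for genes, columns for the 5 female and 5 male groups, and colour from blue (lower) to red (higher). Glasgow females are below 0 for all 8 genes, from -0.25 for srp to -1.70 for LanB2, France males reach 1.77 for vkg, 1.41 for Col4a1 and 1.46 for Hml, and Hikone males reach 2.53 for Pxn.

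The genes were also compared with each other, after each was centred within each sex. These correlations over 29 arrays are a description, since arrays of a strain share its flies and all arrays share a normalization. The collagen genes vkg and Col4a1, which lie next to each other on chromosome arm 2L, had r = 0.98 over all arrays, 0.98 in females, 0.98 in males and 0.76 within groups, so that their replicates also moved together. The laminin chains had r = 0.89 (LanA and LanB2), 0.86 (LanB1 and LanB2) and 0.84 (LanA and LanB1), although LanA and LanB2 lie on 3L and LanB1 on 2L. These pairs were closer in females (0.94, 0.92 and 0.91) than in males (0.82, 0.55 and 0.66), where the group means of the laminin genes spanned less. Within groups they had r = 0.36, 0.08 and 0.26, so that their likeness lay mostly between groups. Collagen and laminin were less alike over all arrays, from 0.66 for vkg and LanB1 to 0.79 for Col4a1 and LanA. In females these pairs had r from 0.81 to 0.89, below the laminin pairs. This did not hold in males, where r was 0.90 for Col4a1 and LanB2, 0.89 for vkg and LanB2 and 0.87 for Col4a1 and LanA. With LanB1 it was 0.65 for Col4a1 and 0.58 for vkg in males. Of the haemocyte genes, Hml had r = 0.81 with Col4a1 and 0.78 with vkg, whereas srp had no r above 0.31 with any of the 7 others. Pxn had r = 0.83 with LanA in females, -0.24 in males and 0.74 within groups, and -0.03 with Hml over all arrays.

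**Figure D4:**
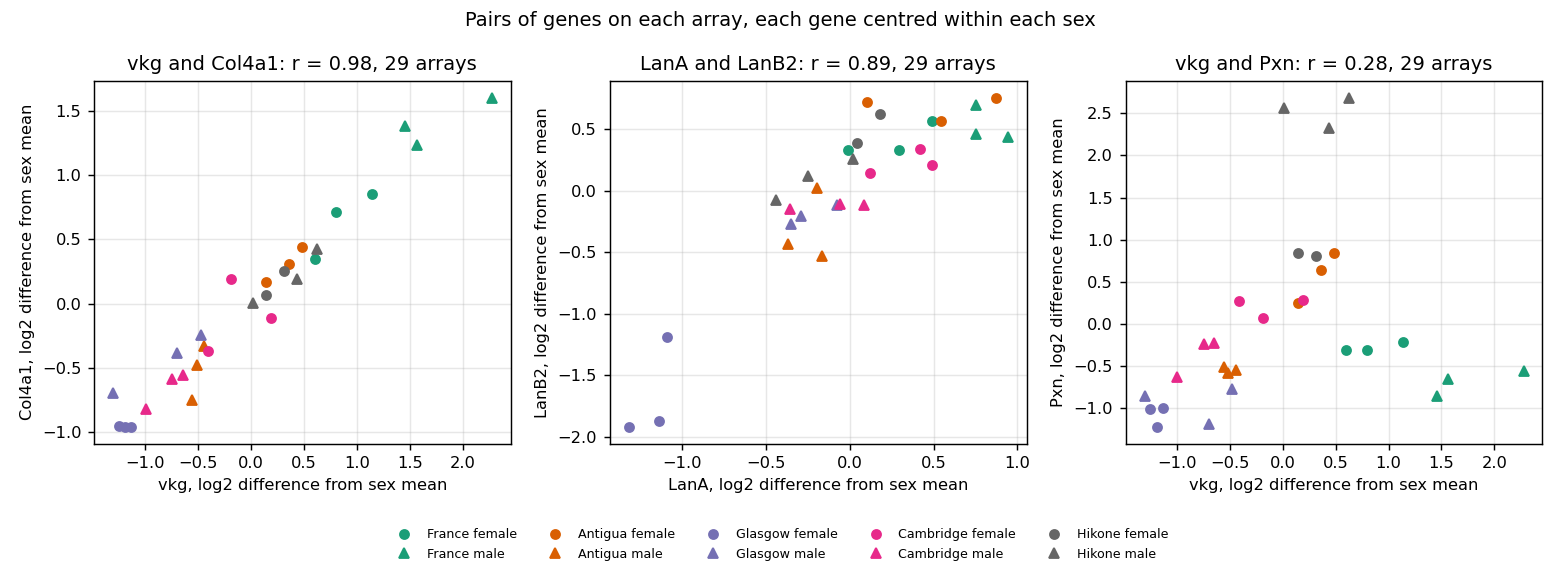
Values of 3 pairs of genes on each of the 29 arrays, as log2 differences from the mean of the sex, with circles for females, triangles for males and a colour for each strain. The points of vkg and Col4a1 fall close to a line (r = 0.98), those of LanA and LanB2 are drawn out by the Glasgow females at the lower left (r = 0.89), and the Hikone males lie above the rest for Pxn against vkg (r = 0.28).

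Among 7025 other genes with a group mean of at least 5, those with the most similar pattern were named for each gene, with r over the 29 arrays. For the collagen chains they were the partner chain and CG14567 (0.94 with vkg and 0.96 with Col4a1), then Glyp, glycogen phosphorylase, for vkg (0.93) and Galt for Col4a1 (0.93). For LanA they were LanB2 (0.89), fng, a glycosyltransferase that modifies Notch (0.88), and GILT3 (0.88), and for LanB1 they were fng (0.88), LanB2 (0.86) and CG9628 (0.86). For LanB2 they were bou (0.91), CG31038 (0.89) and EbpIII, an ejaculatory bulb protein gene (0.89). For Pxn they were CG1113, CG6012 and the cytochrome P450 gene Cyp6a14 (0.88 each), all of which met the minimum only in Hikone males, so that the minimum itself fixed part of their likeness to Pxn. For Hml they were CG8012 (0.85), CG34331 (0.84) and CG5080 (0.84). For srp no gene came close: the highest were Naprt (0.68), CG11381 (0.63) and Vm26Ac (0.63).

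Related genes were read in 8 lists with 63 of 70 genes measured. Other basement membrane and matrix genes showed the strain pattern of collagen and laminin in part. Of 9 measured, 3 were called among strains, against 15.8% of all probe sets. Among females 3 were called, against 6.53%, and among males 2, against 9.67%. None was called for the interaction, against 2.56%. In Glasgow females 3 of the 9 were called lower, against 2.96% of all probe sets, with a median of -0.87. They were SPARC, a collagen-binding matrix protein (4.14-fold, adjusted p = 0.000147), Ppn, papilin (6.06-fold, adjusted p = 2.56e-05; its second, dim probe set had a difference of -0.06), and Glt, glutactin (2.39-fold, adjusted p = 0.00864). In France males SPARC (3.1-fold, adjusted p = 0.00464) and Glt (2.73-fold, adjusted p = 0.000784) were called higher, against 2.97% of all probe sets. Ppn was 3.08-fold higher there without a call (adjusted p = 0.036). Between the sexes Mp, a collagen of the multiplexin kind, was the only one of the 9 called. It was 1.44-fold higher in males (0.53, SE 0.07, adjusted p = 0.00562), and its 2 dim probe sets differed by -0.07 and -0.04. Of all probe sets 18.1% were called higher in males and 28.8% lower. SPARC differed by 0.46 (SE 0.13, adjusted p = 1). The group means of SPARC were 9.90 in France males, 9.25 in Hikone males, 9.13 in France females and 6.49 in Glasgow females.

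Of 8 genes that modify and secrete collagen IV, 3 were called lower and 1 higher in males, shares near the 28.8% and 18.1% of all probe sets. None was called among strains, against 15.8% of all probe sets, among females (6.53%), among males (9.67%) or for the interaction (2.56%). With 8 genes, such shares leave few calls to be missed. Plod, the lysyl hydroxylase of collagen IV, was 6.88-fold lower in males (adjusted p = 1.94e-15), with group means of 7.09 to 8.35 in females and 4.68 to 5.14 in males. Crag (2.86-fold, adjusted p = 9.84e-12) and Rab10 (1.47-fold, adjusted p = 4.42e-06; 2.42-fold by its second probe set), both needed for the polarised secretion of basement membrane, were lower in males as well. Pdi, protein disulfide isomerase, was 1.34-fold higher (adjusted p = 0.000808). The metalloprotease inhibitor Timp was 2.72-fold higher in males (adjusted p = 2.82e-10) and 2.16-fold lower in Glasgow females (adjusted p = 0.000805), whereas Mmp2 was not called in any of these tests. Of 8 integrins and dystroglycan, the matrix receptors, 1 was called higher in males and 1 lower, against 18.1% and 28.8% of all probe sets. The integrin alpha chain if was 1.64-fold higher in males (adjusted p = 0.000105) and Dg 1.67-fold lower (adjusted p = 9.52e-07). None was called among strains, against 15.8% of all probe sets.

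Among other haemocyte markers few calls were made. Of 15 measured, 1 was called higher in males and 1 lower, against 18.1% and 28.8% of all probe sets. The receptor Pvr was higher in males (1.59-fold, adjusted p = 8e-05) and the scavenger receptor crq lower (1.48-fold, adjusted p = 0.000474). None was called in Glasgow females or France males, where the medians were 0.00 and -0.12. Of all probe sets 2.96% were called lower in the former and 2.97% higher in the latter. In France males Sr-CI (2-fold, adjusted p = 0.257), NimC4 (1.84-fold, adjusted p = 0.19) and NimC1 (1.8-fold, adjusted p = 1) had the largest differences, all upward and without a call. Their means there were 5.50, 3.47 and 4.95, so that NimC4 and NimC1 were below 5. The median of -0.12 lay on the other side, with NimC2 (log2 difference -0.28), kn (-0.24) and gcm (-0.23) lower. Only 4 of the 15 had a group mean of at least 5, and the called strain differences of gcm and gcm2 were in dim probe sets with means of 3.00 and 2.81. These 2 of 15 called among strains are near the 15.8% of all probe sets. The defining markers NimC1 and eater averaged 4.23 and 3.72, and these, Sr-CI, NimC4, NimC2 and kn were named after their values were seen. Of the 5 GATA factors and their cofactor ush, 1 was called lower in males, against 28.8% of all probe sets, and 1 among strains, against 15.8%. GATAd was 2.13-fold lower in males (adjusted p = 1.02e-06) and pnr, a dim probe set with a mean of 3.09, was called among strains (adjusted p = 0.00282). Of 4 fat body markers, apolpp, the lipophorin precursor, was called 1.65-fold higher in males (adjusted p = 0.00351), against 18.1% of all probe sets. None of the 4 was called among strains, against 15.8%. All 12 follicle cell, eggshell and yolk markers were called lower in males, against 28.8% of all probe sets, with a median of -7.18. Among strains in females 2 were called, against 6.53%.

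**Figure D5:**
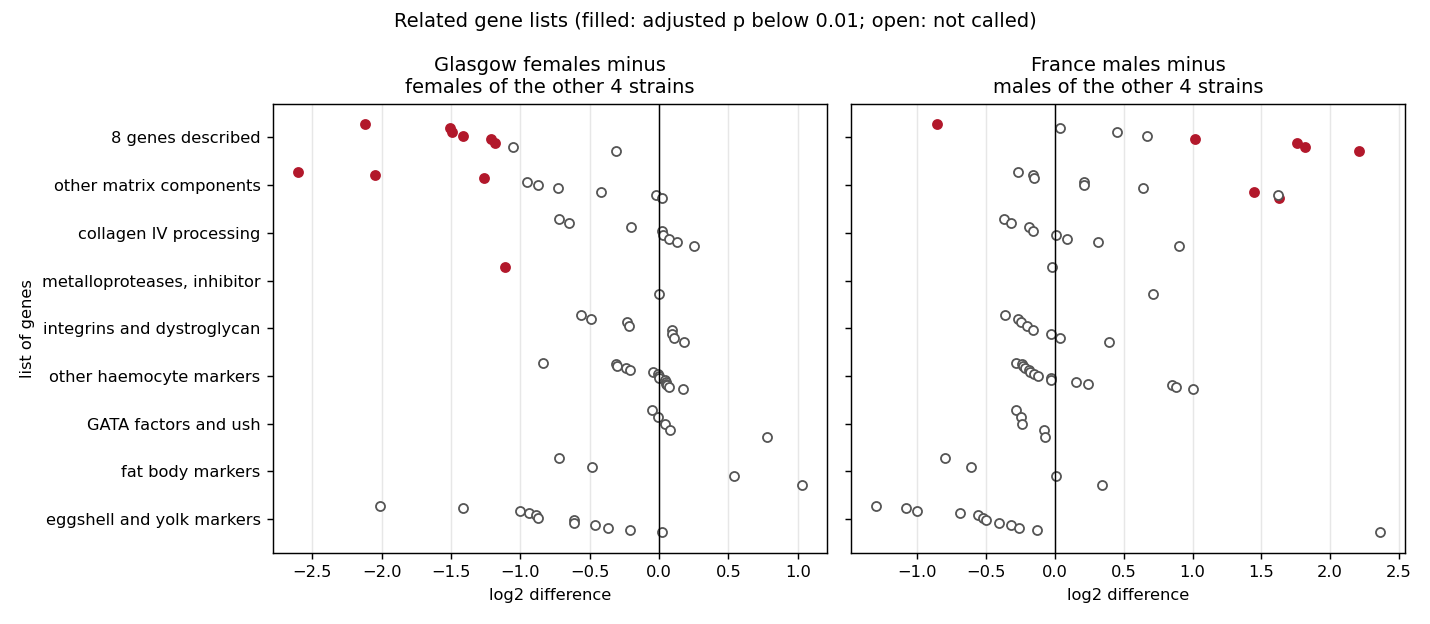
Log2 differences of the 8 genes and of 8 related lists, with 1 point per gene, filled where the adjusted p is below 0.01: Glasgow females minus the mean of the other females (left) and France males minus the mean of the other males (right). Filled points left of 0 in Glasgow females are 6 of the 8 genes, 3 matrix components and Timp, and filled points in France males belong to the 8 genes and to 2 matrix components.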

How the data were processed

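The deposited values are log2 expression of probe sets, which the authors made with GCRMA, correcting for the GC content of probes and normalizing by quantiles; its version is not given in the sources used here. They were used as deposited. Of 14010 probe sets, 44 array controls were left out. The platform's table gave 1 symbol for 12443 probe sets, several for 327 and none for 1196, and 12394 were found in the RefSeq gene table, which gave chromosome arms and neighbours. A linear model with 10 group means, moderated by empirical Bayes, was run in limma 3.58.1 (R 4.3.3) after tests on simulated data. Bonferroni adjustment ran over 13966 probe sets for each comparison, and calls needed an adjusted p below 0.01. The probe set with the highest mean stood for a gene in lists.

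Genes named are the 8 genes, the 3 genes most like each, and up to 4 of each related list, called ones first (lowest p for sex, largest F), then the brightest. Further haemocyte markers were named outside this rule, after their values were seen. The genes and lists were chosen with earlier results of these data known. Replicate numbers were checked as pairs: of 14 pairs of a male and a female array of a strain with the same number, 6 had deviations from their group means that correlated above 0.1 (range -0.06 to 0.43), so no block was used. The alternatives were Benjamini-Hochberg adjustment at 0.05, median centring, repeated quantile normalization, a minimum group mean of 5, trended robust moderation, array weights, a replicate block, each sex fitted alone and each array left out. Leaving out France female replicate 3 with Cambridge male replicate 1, or Hikone, was added after the data were seen.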

Additional observations from a re-analysis of the deposited data

Results flagged for a closer look

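The strain differences of LanB2 differed between males and females (interaction of sex and strain, limma, adjusted p = 7.94e-05). LanB2 was lower in Glasgow females than in Glasgow males and higher in females than in males of the other 4 strains. Those of Pxn differed as well (adjusted p = 2.13e-06), with Hikone males 2.30 above Hikone females on the log2 scale and Antigua males 0.52 below Antigua females (log2 difference -0.52).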

How the results depend on the processing

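No direction of a called difference turned under any alternative. With Benjamini-Hochberg adjustment the genes called rose from 5 to 8 among strains, from 3 to 7 among males and from 2 to 8 for the interaction, where 85.3%, 74.3% and 39.7% of all probe sets were called, and from 14 to 40 over the 10 comparisons of a strain with the other 4 and from 9 to 25 over the 5 comparisons of the sexes within a strain, where 31.3% and 61.6% of all tests were called. With each sex fitted on its own, which leaves fewer arrays to estimate the spread, 2 in place of 6 were called among females and 8 in place of 14 for single strains. The interaction was called for 4 genes with a minimum group mean of 5, which tests fewer probe sets, and for 6 with array weights, whose estimation stopped before it converged. The shares of all probe sets called under these settings and with each sex alone are not given, so these counts have no comparison. Without Hikone 3 in place of 6 were called between the sexes and 1 in place of 2 for the interaction. With quantile normalization repeated, the sex differences of vkg (adjusted p = 0.0137) and Col4a1 (0.0135), LanB1 among females (0.0349), LanB1 between the sexes of Antigua (0.0176), Col4a1 between those of Cambridge (0.0866), LanA (0.013), Pxn (0.0106) and Hml (0.0203) in France males and Pxn in Hikone females (0.155) were not called, and the count for single strains was 11. With each sex on its own, vkg among males (0.0131) and Pxn (0.0703) and Hml (0.2) in France males and Pxn in Hikone females (0.142) also lost their calls. The cause was not tested where none is given.

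Leaving out each array in turn gave 5 to 6 genes called between the sexes, 5 to 5 among strains, 4 to 6 among females, 3 to 3 among males, 2 to 3 for the interaction, 11 to 16 for single strains and 7 to 11 between the sexes within strains. Without both France female replicate 3 and Cambridge male replicate 1, the calls of Col4a1 between the sexes of Cambridge (adjusted p = 0.0251) and of Hml in France males (0.0113) were lost. With the replicate number as a block, although nothing in the labels says that numbers pair samples, the counts were 6, 5, 6, 3, 2, 12 and 9 in the same order, and the calls of Pxn in Hikone females (adjusted p = 0.0115) and Hml in France males (0.0185) were lost. In 8 of 14 pairs an array correlated best with its own number. Where 1 Hikone female was left out, the other was assumed to vary like the other groups.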
